A study of Mus musculus with 16 samples.

Results

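The 37 genes described here encode the core of the cell cycle and of DNA replication, from the cyclins that open the cycle to the motors that end mitosis, and they were measured by RNA sequencing in the livers of mice that were pair-fed or ethanol-fed with or without iodomethylcholine (IMC). The list is defined by gene names, and all 37 were found among the 24082 genes of the deposited table. Of these, 31 had a normalized count of at least 10 in at least 4 of the 16 libraries and were tested, among 12522 genes that passed the same filter. Cdc6, Ccnb1, Aurkb, Plk1, Bub1 and Cdc20 stayed under it and are given by their values.

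All animals were female C57BL6/J mice, 9 to 11 weeks old at the start of feeding, with 4 libraries in each of 4 groups. Pair control mice received a liquid control diet in an amount matched to the ethanol-fed animals, with maltose dextrin in place of the ethanol calories, and Pair IMC mice the same diet with IMC at 0.06% wt/wt. EtOH control mice had free access to a liquid diet in which ethanol was raised stepwise to 6% vol/vol, and EtOH IMC mice the same diet with IMC. The labels give a chronic ethanol diet for these groups, and vehicle treatment for Pair control and EtOH control. IMC inhibits the choline TMA lyase of gut microbes, which makes trimethylamine from dietary choline. As limits of the model, mice given both IMC and ethanol ate less and weighed less in the study. A figure legend of the study also marks a body weight difference between pair-fed mice with and without IMC. The labels do not tie a library to a cage or a day of sampling, so each test measures the spread between these libraries.

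A cell that enters the cycle first raises its D-type and E-type cyclins, which release E2F factors to switch on the genes of DNA replication. The MCM helicase is then loaded on replication origins, nucleotides are made, and after S phase cyclin B and Cdk1 drive the cell into mitosis, where the Aurora and Polo-like kinases, the checkpoint proteins and the spindle motors separate the chromosomes. Most hepatocytes of an adult mouse rest outside the cycle, and the liver is known for returning to it after loss of tissue.

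Between 9632659 and 12601199 reads per library fell on genes. Values are the authors' normalized counts, rescaled here so that the 16 libraries share one scale. All 8 hepatocyte markers examined had a mean of at least 10, with a summed normalized count of 969100 to 1746000 per library. The sum was 1102000 to 1746000 in Pair control and 1581000 to 1710000 in Pair IMC. It was 1006000 to 1147000 in EtOH control and 969100 to 1246000 in EtOH IMC. Libraries numbered 1 to 8 hold Pair IMC and EtOH control, and libraries numbered 9 to 16 hold Pair control and EtOH IMC. Within either diet the effect of IMC therefore cannot be told apart from the numbering. The same holds for the effect of ethanol within either treatment and for the difference in IMC effect between the diets. The effect of IMC averaged over both diets and the effect of ethanol averaged over both treatments are balanced over these ranges. They are put first. All ethanol-fed libraries have odd numbers and all pair-fed libraries even ones, so the effect of ethanol cannot be told apart from that order.

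These genes were low in liver. Expressed per kb of annotated exon, the highest was Pcna with a mean normalized count of 132 per kb over the 16 libraries, followed by Ccnd1 with 113 per kb. Mcm7 at 34.6 per kb and Rrm2 at 33.0 per kb came next, and the other 33 genes lay between 0.54 and 16 per kb, with Cdc6 the lowest. The highest levels were thus those of the replication clamp, cyclin D1, a helicase subunit and a subunit of ribonucleotide reductase. Most of the genes had a wide spread within groups. The median SD within a group was 0.57 on the log2 scale over the 31 tested genes, against 0.34 over the 3845 tested genes with a mean of 10 to 100 and 0.20 over all genes tested. It was 0.16 for the 4 genes of DNA synthesis and nucleotide supply and 0.72 for the 9 genes of spindle, chromosome and cytokinesis. For Mki67 the SD within groups was 1.02, while counting alone would give 0.21 at its mean of 49.4 reads per library.

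**Figure D1:**
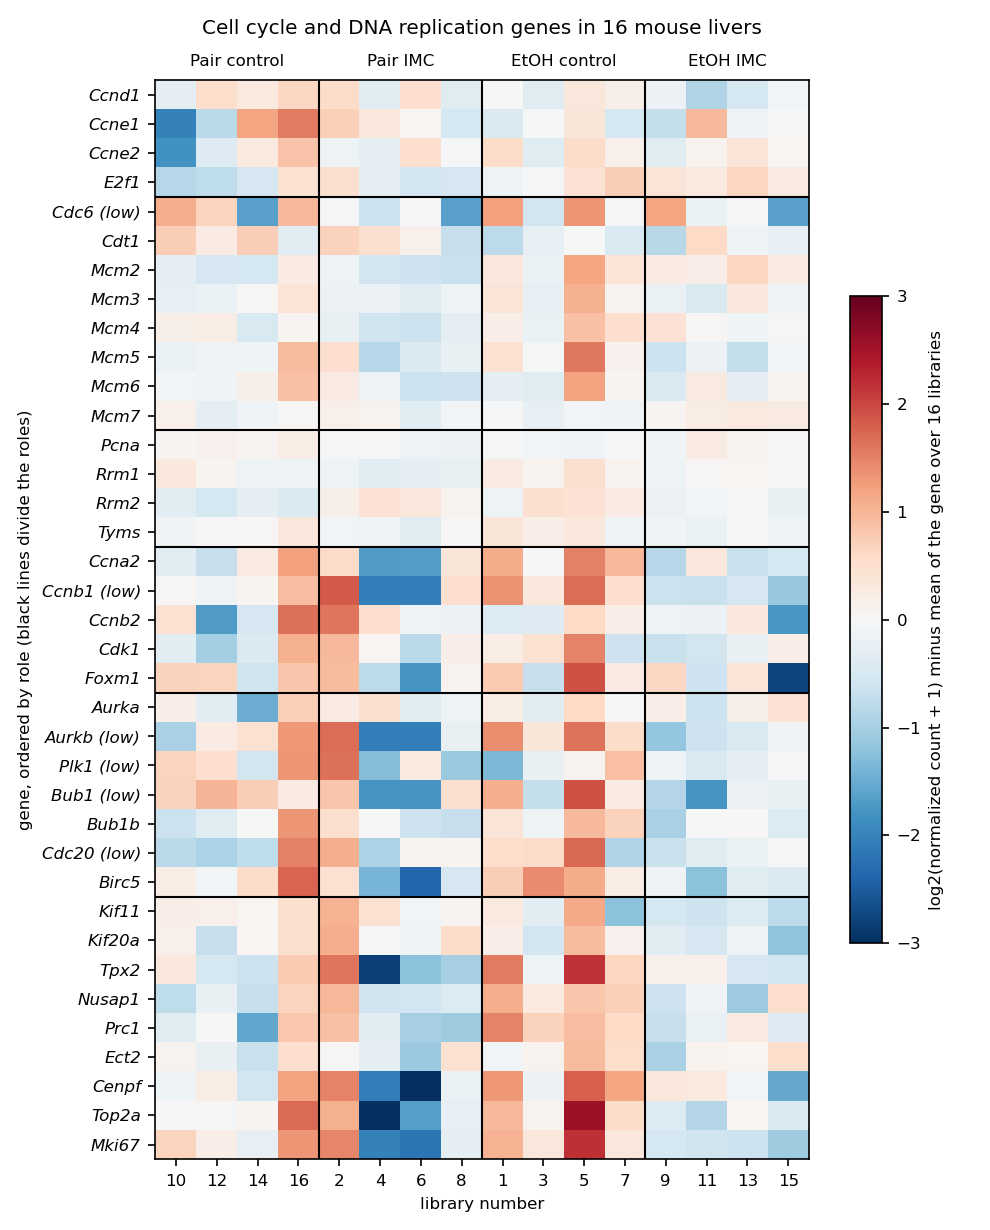
Heat map of the 37 genes (rows, ordered by role) in 16 libraries (columns, by group and library number), as log2(normalized count + 1) minus the mean of the gene over all libraries. Most mitotic genes, drawn in the lower 3 blocks, were high together in library 5 of EtOH control, library 16 of Pair control and library 2 of Pair IMC and low together in libraries 4 and 6 of Pair IMC, while Pcna, Rrm1 and Tyms varied little.

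High and low values fell together in a few libraries. Library 5 of EtOH control held the highest value of 18 of the 37 genes and was among the highest 3 libraries for 30 of them. Library 16 of Pair control was among the highest 3 for 20 genes and library 2 of Pair IMC for 19. At the other end, library 6 of Pair IMC held the lowest value of 11 genes and library 4 of the same group the lowest value of 9. The 21 genes that act from late S phase to cytokinesis, called mitotic genes here, summed to a normalized count of 751 in library 5, 549 in library 16 and 518 in library 2, and to 124.5 in library 6 and 170.3 in library 4. Each of the 3 groups with a high library thus spanned a wide range in the mitotic sum, from 198 to 549 in Pair control, from 124.5 to 518 in Pair IMC and from 274 to 751 in EtOH control. The 4 EtOH IMC libraries lay close together, between 187 and 218, below every EtOH control library and within the range of Pair IMC. The 6 MCM genes showed less of this pattern, with a sum of 671 in library 5 and 277 to 499 in the other 15 libraries.

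**Figure D2:**
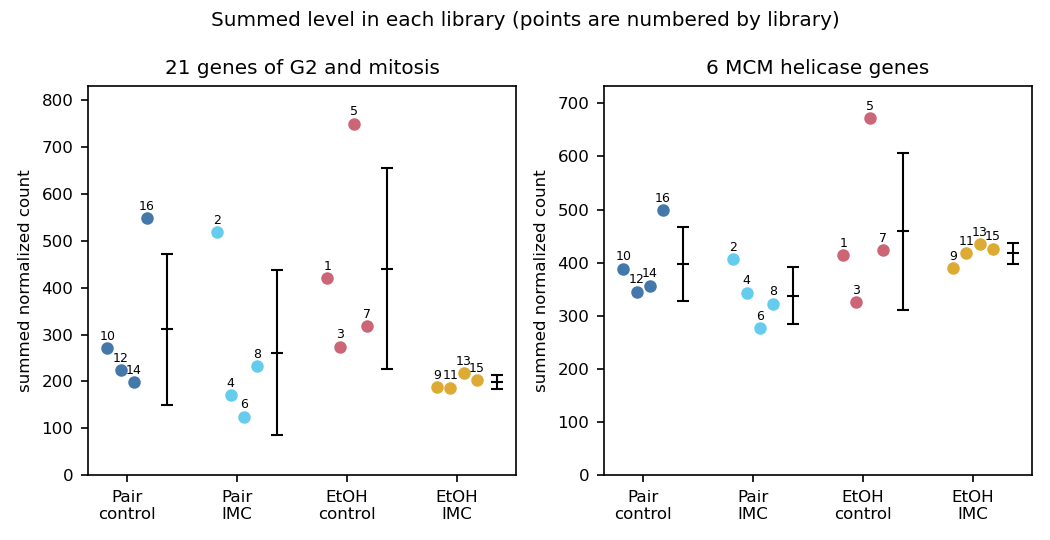
Summed normalized count of the 21 mitotic genes and of the 6 MCM helicase genes in each library. Points are libraries, labelled by number, and bars are the mean and SD of each group (n = 4). EtOH IMC held the narrowest range in both panels, and library 5 of EtOH control the highest point.

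Markers of other cells that can divide in liver were read in the same libraries. Library 16 had the highest summed normalized count of the 8 Kupffer cell and macrophage markers (6936), the 8 T and NK cell markers (104) and the 6 B and plasma cell markers (81.9), where the 3 groups other than its own reached at most 5398, 53.5 and 55.2. Library 5 ranked 4, 12 and 5 of 16 for these lists. It ranked 2 for sinusoidal endothelium and for stellate cells and fibroblasts, 6 for bile duct, 11 for erythroid, 13 for neutrophil and monocyte and 15 for hepatocyte markers. Library 2 had the highest erythroid sum (226) and the highest sum of no other list. In EtOH IMC the macrophage, T and NK cell, and B and plasma cell lists summed to 2944 to 4670, 29.5 to 38.6 and 18.8 to 34.8. In EtOH control they summed to 4011 to 5398, 40.4 to 51.7 and 31.1 to 55.2, and none of their tested genes was called with IMC averaged over diets. The 6 erythroid markers summed to 71.8 to 75.1 in EtOH IMC, 108 to 206 in EtOH control, 150 to 226 in Pair IMC and 178 to 207 in Pair control, and 2 of the 5 tested were lower with IMC averaged over diets. The 6 stellate cell and fibroblast markers summed to 2609 to 3512 in EtOH IMC and 4057 to 4724 in EtOH control, and 2 of 6 were lower with IMC. Beside these counts, 14% of all genes tested were lower with IMC averaged over diets, and 28.2% were called in either direction. Over all libraries the 7 neutrophil and monocyte markers summed to 28.8 to 98.2, the 6 of sinusoidal endothelium to 2519 to 3504 and the 6 of bile duct to 551 to 1214, with no call for IMC averaged over diets. The T and B cell genes Cd3e, Cd3d, Cd3g, Cd8a, Cd4, Cd79a, Cd79b and Ms4a1 each had a mean under 10. Of the 8 hepatocyte markers, Hnf4a alone was called with IMC averaged over diets, and it was higher. The part of these cells in the results that follow was not tested, and in RNA from whole liver fewer cells of a type and less RNA per cell cannot be told apart.

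With IMC averaged over diets, 4 of the 31 tested genes were called lower and none higher, by limma on log2(normalized count + 1) with a Benjamini-Hochberg adjusted p under 0.05. They were Rrm1, Birc5, Top2a and Mki67. The background was 28.2% of all genes called in either direction, 14% lower, and 18.6% in either direction among genes with a mean under 100, so that 12.9% of the cell cycle genes is not above it. Their direction was less even than that of all genes. The median log2 change was −0.30 over the 31 genes, against −0.01 over all genes, and 23 of 31 lay below 0. With no filter on low values, 29 of all 37 lay below 0. Many of these genes were high or low together in a few libraries, so counts of signs here and below are not independent evidence.

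With ethanol averaged over treatments, E2f1, Mcm2 and Mcm4 were called higher by limma and none lower, 9.68% of the 31 genes beside a background of 26.1% in either direction and 13% higher. The median change was 0.17, with 23 of 31 genes above 0. Among markers of other cells, ethanol averaged over treatments gave calls for 3 of 6 genes of sinusoidal endothelium (Lyve1, Kdr and Clec4g) and 2 of 6 of stellate cells and fibroblasts (Col1a1 and Lrat), all higher, for 3 of 5 erythroid genes and 1 of 2 T and NK cell genes, all lower, and for no tested gene of macrophages, B and plasma cells, neutrophils and monocytes or bile duct. Of the 8 hepatocyte markers, Tat was called higher and Apoa1 lower. The part of these cell types in the result was not tested. IMC and ethanol effects shared the 16 libraries and are given side by side, not compared.

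Within a single diet or treatment the counts were smaller, and none of these comparisons can be told apart from the numbering of the libraries. IMC in pair-fed mice gave 1 call, Rrm2 higher, beside a background of 9.49%, and IMC in ethanol-fed mice gave 1, Mcm7 higher, beside 21.5%. The difference between those effects was called for Rrm2 alone, beside 1.11%. Ethanol without IMC gave Rrm2 higher, beside 11.9%, and ethanol with IMC gave Mcm2 higher, beside 16.5%. The direction in ethanol-fed mice given IMC was again less even than the calls, with 26 of 31 tested genes and 32 of all 37 genes below 0 and a median of −0.44. In that comparison the groups did not overlap for 7 genes, of which Mcm5, Rrm1, Birc5, Prc1, Top2a and Mki67 were lower in every EtOH IMC library than in any EtOH control library and Mcm7 was higher. The background for such separation was 25.3% in either direction and 12.9% for lower. In pair-fed mice IMC separated the groups for 2 genes, Pcna lower and Rrm2 higher, beside 14.3%.

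**Figure D3:**
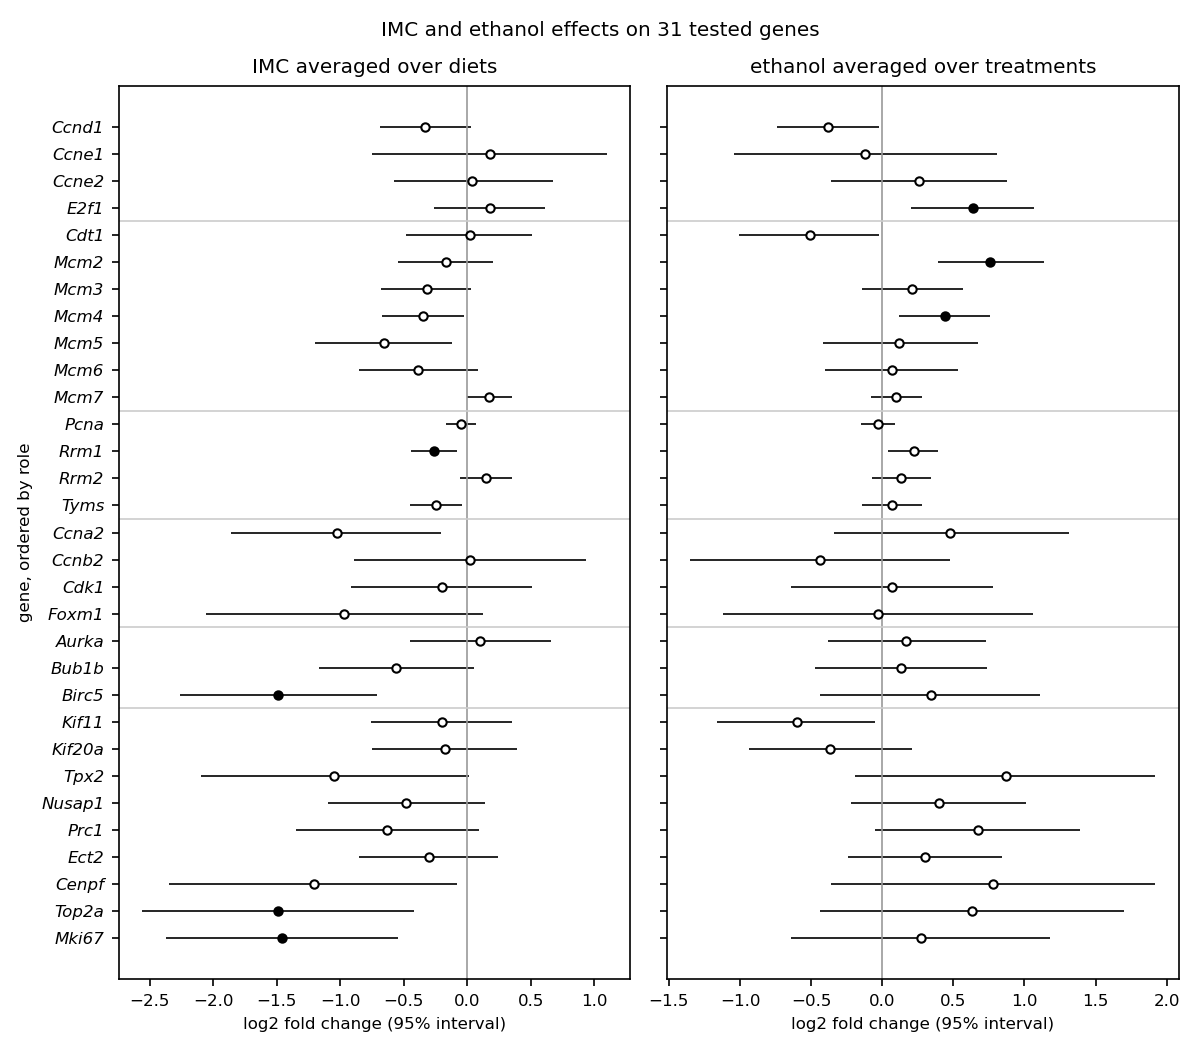
Log2 fold changes of the 31 tested genes (rows, ordered by role) for IMC averaged over diets and for ethanol averaged over treatments, with 95% intervals from limma. Filled points have an adjusted p under 0.05. The 4 filled points on the left, Rrm1, Birc5, Top2a and Mki67, lie below 0, and the 3 on the right, E2f1, Mcm2 and Mcm4, lie above 0.

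The G1/S cyclins and E2F held 1 call, for E2f1 with ethanol. Ccnd1, cyclin D1, was abundant at a normalized count of 272 to 775. Among pair-fed mice its mean was 639 ± 159 (SD, n = 4) in controls and 565 ± 192 with IMC, and among ethanol-fed mice 529.8 ± 107 and 388 ± 95.5, a log2 change of −0.33 with IMC (adjusted p = 0.155, limma) and −0.38 with ethanol (adjusted p = 0.108). Neither passed the test, and the groups overlapped. The E-type cyclins Ccne1 and Ccne2, partners of Cdk2 at the start of S phase, were low, with Ccne1 at 1.11 to 24.3 and Ccne2 at 4.43 to 33.4, the lowest and the highest of each both in Pair control, and neither was called in any comparison. Exons of Ccnd1 overlap those of LTO1 on the opposite strand by 1100 bases, 23.4% of its exon length. Those of Ccne2 overlap Ints8, also on the opposite strand, by 609 bases, or 17.4%. Whether reads of these neighbours entered the values was not tested.

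E2f1, the factor that switches on replication genes, counted 15.5, 16.5, 19.8 and 39.5 in Pair control and 40.4, 23.2, 18.9 and 20.02 in Pair IMC. It counted 25.8, 27.6, 38.8 and 48.1 in EtOH control and 37.6, 35.4, 45.5 and 34.8 in EtOH IMC. Most ethanol-fed livers were thus above most pair-fed livers, but library 16 of Pair control and library 2 of Pair IMC were as high as the ethanol-fed ones and the groups overlapped. E2f1 rose by 0.64 ± 0.21 (log2, SE) with ethanol averaged over treatments (adjusted p = 0.0313, limma). The change was 0.66 without IMC and 0.62 with it, and neither alone passed the test. Leaving out single libraries moved the adjusted p between 0.00514 and 0.0689, and leaving out library 5, 6, 7, 8, 10, 12, 13 or 14 ended the call. It was also lost in edgeR on whole reads, with and without library 15 (0.052 and 0.0642), and with no filter on low values (0.0526).

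Origin licensing was represented by Cdc6 and Cdt1, which load the helicase, and by its 6 subunits. Cdc6 was near the limit of detection, with 48 reads over all 16 libraries. Cdt1 ranged from 14.5 to 45.5 and was not called, at −0.51 with ethanol (adjusted p = 0.12, limma). Mcm2 counted 33.2, 28.2, 28.0 and 48.5 in Pair control and 36.4, 27.1, 25.9 and 25.0 in Pair IMC. In the ethanol-fed groups the counts were 51.7, 35.0, 93.5 and 54.1 (EtOH control) and 47.9, 46.3, 64.3 and 47.9 (EtOH IMC). Every EtOH IMC library was above every Pair IMC library, while without IMC the ranges overlapped at library 3 of EtOH control and library 16 of Pair control. Mcm2 rose by 0.76 ± 0.18 with ethanol averaged over treatments (adjusted p = 0.00439) and by 0.83 ± 0.25 with ethanol in IMC-treated mice (adjusted p = 0.0302), and was at 0.70 ± 0.25 without IMC (adjusted p = 0.077), where DESeq2 called it higher. The call in IMC-treated mice was lost without library 4, 6, 8, 13 or 15, at an adjusted p of up to 0.0907, with no filter (0.0506) and in edgeR without library 15 (0.0665). The averaged call held with each library left out, at an adjusted p of at most 0.0115, and in all 9 alternative settings.

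Mcm4 counted 62.0, 64.2, 39.6 and 58.7 in Pair control and 47.5, 35.8, 34.9 and 45.0 in Pair IMC. In the ethanol-fed groups the counts were 63.3, 47.8, 103 and 79.2 (EtOH control) and 74.4, 56.4, 50.5 and 56.4 (EtOH IMC). With IMC in the diet, ethanol separated the groups, and without it they overlapped. Mcm4 rose by 0.44 ± 0.15 with ethanol averaged over treatments (adjusted p = 0.0434, limma), with a leave-one-out adjusted p of 0.0138 to 0.0948. The call was lost without library 1, 4, 5, 6, 7, 9, 11, 14, 15 or 16, with no filter (0.0688) and with quantile normalization (0.064). Ethanol with IMC separated the groups for 6 genes, with Mcm2, Mcm4 and Rrm1 higher and Rrm2, Kif11 and Kif20a lower, beside a background of 19.2%, and ethanol without IMC for 2, Pcna lower and Rrm2 higher, beside 19%.

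Of the other subunits, Mcm3, Mcm5 and Mcm6 were at 0.21, 0.12 and 0.07 with ethanol and at −0.32, −0.66 and −0.39 with IMC, with no call by limma. Mcm5 counted 30.3, 21.2, 67.4 and 24.1 in EtOH control and 13.7, 19.4, 12.9 and 20.7 in EtOH IMC, a change of −0.93 ± 0.36 (adjusted p = 0.0762, limma) with no overlap. DESeq2 and edgeR with upper-quartile normalization called Mcm5 lower both there and with IMC averaged over diets. Mcm7 was above 0 in the same comparison. It counted 148, 128, 142 and 141 in EtOH control and 162, 178, 188 and 182 in EtOH IMC, and rose by 0.34 ± 0.12 (adjusted p = 0.0483). In pair-fed mice its change was 0.01. The Mcm7 call was lost without library 1, 3, 5, 7, 8, 11, 13, 14, 15 or 16, at an adjusted p of up to 0.122, with no filter (0.0673) and in edgeR with upper-quartile normalization (0.0593) or without library 15 (0.0828). Exons of Mcm7 overlap those of Ap4m1 and Cops6 on the opposite strand, by 321 and 64 bases, and whether the counting used the strand is not given in the sources used here.

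The 4 genes of DNA synthesis and nucleotide supply had a small spread within groups. Pcna, the sliding clamp of the replicative polymerases, counted 333, 344, 336 and 366 in Pair control and 302, 309, 284 and 280.3 in Pair IMC. In the ethanol-fed groups the counts were 304, 296, 287 and 304 (EtOH control) and 293, 373, 331 and 316.5 (EtOH IMC). All Pair control libraries were above all Pair IMC and all EtOH control libraries, by 0.23 and 0.21 on the log2 scale, and neither difference passed the test (adjusted p = 0.0784 and 0.0976, limma). With upper-quartile normalization edgeR called Pcna lower with IMC in pair-fed mice. Tyms, which makes thymidylate, was at −0.25 with IMC averaged over diets (adjusted p = 0.0696), and was called lower by edgeR with upper-quartile normalization. Both genes have processed copies in the genome (Pcna-ps1, Pcna-ps2 and Tyms-ps), and how reads shared with them were counted is not given in the sources used here.

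Rrm1 and Rrm2, the large and the small subunit of ribonucleotide reductase, which makes the deoxynucleotides for DNA, were called in different comparisons. Rrm1 counted 175, 147, 126 and 126 in Pair control and 126, 109, 116 and 120.1 in Pair IMC. In the ethanol-fed groups the counts were 167, 149.8, 195 and 151 (EtOH control) and 127, 144, 144 and 137 (EtOH IMC). The IMC libraries lay at the low end of the range of their diet, with no overlap in ethanol-fed mice. Rrm1 fell by 0.26 ± 0.08 on the log2 scale with IMC averaged over diets (adjusted p = 0.0267, limma). The difference was −0.27 in pair-fed and −0.25 in ethanol-fed mice. The call was lost when library 10, 4, 5 or 9 was left out (adjusted p at most 0.06), and held in all 10 alternative settings.

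Rrm2 counted 69.8, 61.2, 73.4 and 65.8 in Pair control and 101, 121, 112 and 96.3 in Pair IMC. In ethanol-fed mice it counted 80.2, 124, 121 and 105 in EtOH control and 78.7, 84.2, 91.0 and 76.1 in EtOH IMC. Pair control held the lowest level, below every library of the other 3 groups, and Pair IMC and EtOH control shared the same mean of 108. Rrm2 rose by 0.66 ± 0.14 (log2, SE) with IMC in pair-fed mice (adjusted p = 0.00682, limma) and by 0.65 ± 0.14 with ethanol in mice without IMC (adjusted p = 0.0064). In ethanol-fed mice the IMC difference was −0.36 ± 0.14 and did not pass the test (adjusted p = 0.0672), though edgeR with upper-quartile normalization called it lower. Between the diets, the IMC effect on Rrm2 differed by −1.03 ± 0.19 (log2, ethanol-fed minus pair-fed, 95% interval −1.44 to −0.62, adjusted p = 0.0166), and it was the one such difference called among the 31 genes. These 3 calls held with each library left out and in every alternative setting that tested Rrm2, whose mean of 91.4 lies under the strictest filter of 100. Pair IMC and EtOH control are also the libraries numbered 1 to 8, so the pattern of Rrm2 cannot be told apart from the numbering of the libraries.

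**Figure D4:**
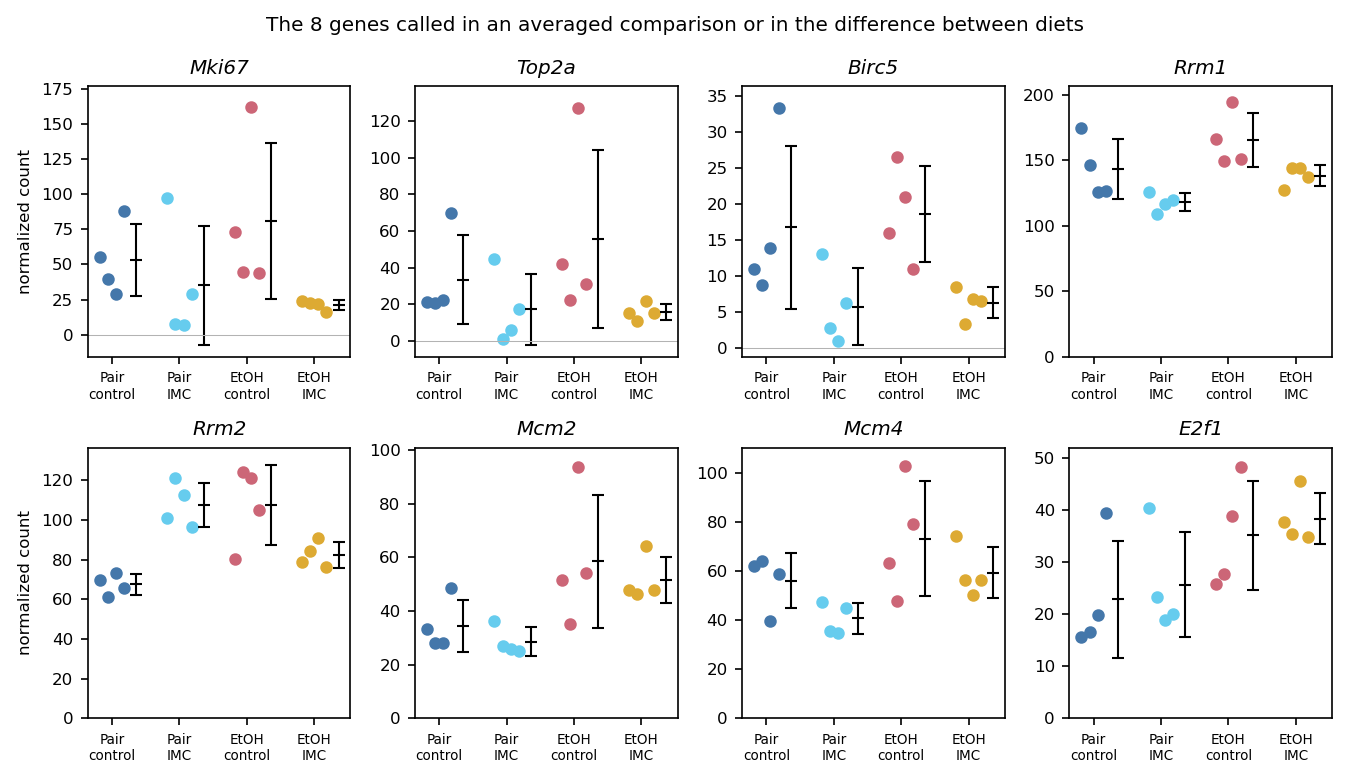
Normalized counts of 8 genes in 16 libraries. Points are libraries, in order of library number within each group, and bars are the mean and SD of the group (n = 4). Rrm2 was lowest in Pair control and Mcm2 higher in both ethanol-fed groups, while Mki67, Top2a and Birc5 were low in EtOH IMC and, apart from library 2, in Pair IMC.

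The cyclins of S phase and mitosis, their kinase Cdk1 and the mitotic transcription factor Foxm1 were low, and none was called in any comparison by limma on all 16 libraries. Ccna2, cyclin A2, counted 6.64, 4.86, 10.5 and 21.2 in Pair control and 13.1, 1.94, 1.99 and 11.3 in Pair IMC. It counted 19.6, 8.50, 26.1 and 18 in EtOH control and 4.28, 10.9, 4.95 and 5.63 in EtOH IMC. The groups overlapped in both diets, and the averaged IMC change of −1.03 ± 0.39 missed the threshold (adjusted p = 0.0578, limma). DESeq2 on whole reads called Ccna2 lower in that comparison and in ethanol-fed mice, and limma on the ethanol-fed libraries alone called it lower there. Foxm1 was at −0.97 (adjusted p = 0.174), Cdk1 at −0.20 and Ccnb2 at 0.02. Ccnb1, cyclin B1, was under the filter, with 0 in libraries 4 and 6 of Pair IMC, 14.1 in library 2 of that group and 0.94 to 1.98 in EtOH IMC against 4.25 to 12.6 in EtOH control. Exons of Ccna2 overlap those of Exosc9 on the opposite strand by 510 bases, at a mean normalized count for Exosc9 of 117. Whether reads of the neighbour entered the Ccna2 values was not tested.

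Among the mitotic kinases and checkpoint genes, Birc5 was called. It encodes survivin, a subunit of the chromosomal passenger complex that guides chromosome attachment together with Aurora B. Birc5 counted 11.1, 8.75, 14 and 33.4 in Pair control and 13.1, 2.90, 0.996 and 6.26 in Pair IMC. It counted 16, 26.6, 21.1 and 11 in EtOH control and 8.55, 3.37, 6.92 and 6.57 in EtOH IMC. Every EtOH IMC library was below every EtOH control library, and in pair-fed mice 3 of the 4 IMC libraries were below every control. Birc5 fell by 1.49 ± 0.37 on the log2 scale with IMC averaged over diets (95% interval −2.26 to −0.71, adjusted p = 0.00642, limma). The differences within the diets were −1.56 and −1.41, with adjusted p of 0.0671 and 0.0632 in limma, and edgeR and DESeq2 called the one in ethanol-fed mice. The averaged call held with each library left out, at an adjusted p of at most 0.0158, and in all 9 alternative settings.

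Neither Aurora kinase was called. Aurka, which acts at the spindle poles, counted 9.32 to 46.5 and was at 0.10 with IMC averaged over diets (95% interval −0.45 to 0.66, adjusted p = 0.803, limma). Aurkb, the partner of survivin, had a count of at least 10 in 2 libraries, counted 0 in libraries 4 and 6 and 0.855 to 2.82 in EtOH IMC, and with no filter was at −1.24 ± 0.47 (adjusted p = 0.079). Bub1, a spindle checkpoint kinase, counted 0 in libraries 4, 6 and 11 and 11.8 in library 5, and with no filter fell by 1.31 ± 0.44 (adjusted p = 0.0461, limma). Its 55 reads over all libraries leave this value on few counts. Bub1b, Plk1 and Cdc20 were at −0.56, −0.34 and −0.23 in the averaged IMC comparison, the last 2 with no filter, and did not pass.

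The genes of spindle, chromosome and cytokinesis held the 2 remaining calls, for Mki67, whose product coats mitotic chromosomes and is the common marker of dividing cells, and Top2a, the topoisomerase that untangles replicated DNA. Mki67 counted 55.4, 39.9, 29.1 and 88.0 in Pair control and 97.0, 7.74, 6.97 and 28.8 in Pair IMC. It counted 73.1, 44.6, 162 and 44.1 in EtOH control and 23.9, 22.7, 21.8 and 16 in EtOH IMC. All EtOH IMC libraries were below all EtOH control libraries, and in pair-fed mice 3 IMC libraries were below every control and library 2 was above every control.

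Mki67 fell by 1.46 ± 0.43 with IMC averaged over diets (95% interval −2.37 to −0.55, adjusted p = 0.0172, limma). It was at −1.69 ± 0.61 in ethanol-fed (adjusted p = 0.0564, with calls by edgeR and DESeq2) and −1.23 ± 0.61 in pair-fed mice (adjusted p = 0.214). The difference between the diets was −0.46 (adjusted p = 0.847). These sizes depend on the scale: edgeR on whole reads put the pair-fed change at −0.60 (adjusted p = 0.574). Group means without and with IMC were 53.1 and 35.1 in pair-fed mice and 80.9 and 21.1 in ethanol-fed mice. The averaged call held with each library left out, between −1.83 and −1.23 and at an adjusted p of at most 0.041. In edgeR's quasi-likelihood test on whole reads without library 15 the adjusted p was 0.0636.

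Top2a counted 21, 20.4, 22.1 and 69.8 in Pair control and 44.4, 0.968, 5.97 and 17.5 in Pair IMC. It counted 41.9, 22.3, 127 and 31.1 in EtOH control and 15.4, 10.9, 21.8 and 15 in EtOH IMC. The order of the libraries was close to that of Mki67, with libraries 5, 16 and 2 high and library 4 at a single read. Top2a fell by 1.49 ± 0.51 (adjusted p = 0.0361, limma), with leave-one-out adjusted p between 0.00643 and 0.08. The call was lost without library 1, 4, 5, 6, 9, 11, 15 or 16, in DESeq2 (0.0519), in edgeR without library 15 (0.0578) and with no filter (0.0533).

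The other 7 genes of this role were below 0 with IMC averaged over diets, at −0.18 (Kif20a), −0.20 (Kif11), −0.30 (Ect2), −0.48 (Nusap1), −0.63 (Prc1), −1.05 (Tpx2) and −1.21 (Cenpf), with no call by limma. The 9 genes were also all below 0 with IMC in ethanol-fed mice, with a median of −1.18, and 6 of 9 in pair-fed mice, with a median of −0.16. Prc1, which bundles microtubules for cytokinesis, counted 26.7, 14.9, 17.7 and 14 in EtOH control and 5.13, 7.58, 10.9 and 6.57 in EtOH IMC, with no overlap and −1.18 ± 0.48 (adjusted p = 0.0907, limma). Prc1 was called lower there by DESeq2, and Prc1 and Nusap1 by limma on the ethanol-fed libraries alone. Kif11, the motor that pushes the spindle poles apart, was the member of this role with the lowest value for ethanol, at −0.60 (adjusted p = 0.0986), and DESeq2 called it lower with ethanol in IMC-treated mice. Kif20a shares 1271 bases of exon with Cdc23 on the opposite strand, which is 29.3% of its exon length. Prc1 shares 911 bases with Rccd1 on the opposite strand, or 11.1%. Whether reads of these neighbours entered the values was not tested.

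The counts of called genes depended on single libraries. With library 2 of Pair IMC left out, 4 genes were called there, with Birc5, Top2a and Mki67 lower and Rrm2 higher, and 8 were called lower with IMC averaged over diets, the additional ones being Mcm5, Cenpf, Tpx2 and Ccna2 (limma). Without library 3 of EtOH control 7 were called lower, adding Mcm5, Mcm4 and Ccna2. Without library 4, 5 or 9 the averaged count was 2, Birc5 and Mki67.

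Promoter sequence was read for 29 of the 37 genes from RefSeq on GRCm38.p6, in a window of 250 bases before to 50 bases after the start of the gene. Genes of mitosis are known to carry a cell cycle homology region (CHR), bound by the MuvB complex, near CCAAT boxes, and genes of replication to carry E2F sites. The CHR was searched as TTTGAA or TTCGAA, the CCAAT box as CCAAT, and the E2F site as TTTCCCGC, TTTCGCGC, TTTGCCGC or TTTGGCGC, on both strands. No motif contains another. The CHR letters were found in 13 of 16 mitotic genes and 2 of 11 replication genes, beside 21.7% of 27025 genes. The E2F letters were found in 6 of 11 replication genes and 1 of 16 mitotic genes, beside 2.6%, and CCAAT in 22 of 29, beside 41.1%. A match describes letters and does not show a site in use.

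The 200 bases before the start are printed for the 2 mitotic genes lower with IMC that had CHR letters, Mki67 and Top2a, for the 2 subunits of ribonucleotide reductase, both called with IMC, and for Mcm2, which had the smallest adjusted p of the ethanol calls. Capitals mark CHR and CCAAT letters on either strand.
Mki67: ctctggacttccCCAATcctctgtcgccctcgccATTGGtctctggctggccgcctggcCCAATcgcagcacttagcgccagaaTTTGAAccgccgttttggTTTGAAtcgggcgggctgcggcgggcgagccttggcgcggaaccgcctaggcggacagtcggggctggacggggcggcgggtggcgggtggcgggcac
Top2a: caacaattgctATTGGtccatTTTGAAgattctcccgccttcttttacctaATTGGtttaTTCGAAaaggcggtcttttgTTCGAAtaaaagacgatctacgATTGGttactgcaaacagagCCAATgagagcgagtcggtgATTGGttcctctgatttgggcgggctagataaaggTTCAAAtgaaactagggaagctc
Rrm1: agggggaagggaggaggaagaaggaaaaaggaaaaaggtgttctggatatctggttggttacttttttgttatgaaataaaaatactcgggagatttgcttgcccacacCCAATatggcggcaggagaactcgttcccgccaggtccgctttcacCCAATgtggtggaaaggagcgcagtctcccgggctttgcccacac
Rrm2: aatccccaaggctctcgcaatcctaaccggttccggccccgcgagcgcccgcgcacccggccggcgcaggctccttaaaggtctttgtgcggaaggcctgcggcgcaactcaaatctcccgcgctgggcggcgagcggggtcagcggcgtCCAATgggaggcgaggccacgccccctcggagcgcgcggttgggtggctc
Mcm2: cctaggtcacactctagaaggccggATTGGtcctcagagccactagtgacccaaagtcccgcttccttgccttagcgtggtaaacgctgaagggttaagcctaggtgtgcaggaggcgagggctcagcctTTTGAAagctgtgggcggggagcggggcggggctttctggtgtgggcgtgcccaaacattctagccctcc
They lie at chr7:135716380-135716579 (minus strand), chr11:99024190-99024389 (minus), chr7:102441495-102441694 (plus), chr12:24708054-24708253 (plus) and chr6:88898781-88898980 (minus). Mki67 had CHR letters beginning 116 and 98 bases before the start, with CCAAT letters at 188, 166 and 141. Top2a had them at 179, 140, 120 and 23 bases, with CCAAT letters at 189, 149, 98, 78 and 58. Rrm1 and Rrm2 had CCAAT letters at 91 and 45 bases and at 50 bases, and no CHR letters. Mcm2 had CHR letters at 70 bases and no E2F letters. Birc5 and E2f1 had no match in the window, and Mcm4 was not among the promoters read.

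Genes of the same pathway outside the 37 were followed in 5 lists with 118 genes, of which 88 were tested. With IMC averaged over diets 8 were higher and 15 lower, and with ethanol averaged over treatments 9 were higher and 10 lower, again no more often than the background of 28.2% and 26.1%. Of the falls with IMC, most were among the other replication factors, with 9 lower and 1 higher of 34. For this list and each list below, the background with IMC averaged over diets was 28.2% in either direction and 14% lower. Rpa1, the large subunit of the single-strand binding protein, fell by 0.43 ± 0.07 (log2, SE, adjusted p = 0.000203, limma), from a mean of 369.6 ± 14.8 (SD, n = 4) to 260.2 ± 26.7 in pair-fed and from 463 ± 30.5 to 367 ± 41.9 in ethanol-fed mice. Pole, the catalytic subunit of polymerase epsilon, fell by 0.96 ± 0.16 (adjusted p = 0.000326). Tk1, thymidine kinase, fell by 1.02 ± 0.20 (adjusted p = 0.00138). The single rise was Dbf4, the activator of the Cdc7 kinase that fires origins, at 1.01 ± 0.18 (adjusted p = 0.000549). With ethanol averaged over treatments, Rpa1 and Prim1, a primase subunit, rose by 0.41 ± 0.07 and 0.65 ± 0.14 (adjusted p = 0.000341 and 0.0026, limma).

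In the list of the RB family, other E2Fs and the MuvB complex, 3 genes were higher and 2 lower of 16 tested with IMC. E2f8, a repressing E2F, fell by 1.0 ± 0.19 with IMC (adjusted p = 0.000885, limma) and by 0.86 ± 0.19 with ethanol (adjusted p = 0.00303), with means of 235 and 141 without and with IMC in pair-fed mice and of 159.9 and 65.2 in ethanol-fed mice. Rbl1, the RB relative p107, was the other gene lower with IMC and fell by 0.80 ± 0.22 (adjusted p = 0.0113). Lin37, a MuvB subunit, rose by 0.50 ± 0.11 with IMC (adjusted p = 0.00392). E2f2 rose by 1.01 ± 0.23 with ethanol (adjusted p = 0.00366), as did Rbl1 by 0.87 ± 0.22 (adjusted p = 0.00749).

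Among 13 tested cyclins, CDKs and CDK regulators, 2 were higher and none lower with IMC. Ccnf, cyclin F, rose by 0.73 ± 0.12 (adjusted p = 0.000274, limma), from 91.7 to 176 in pair-fed and from 122.5 to 171 in ethanol-fed mice. Cdk2 fell by 0.53 ± 0.09 with ethanol (adjusted p = 0.000321). The CDK inhibitors had 1 gene higher and 2 lower of 5 tested with IMC, named here after their values were seen. Cdkn1a, which encodes p21 and is induced by stress and DNA damage, rose by 1.58 ± 0.51 (adjusted p = 0.0265), from a mean of 48.7 to 142 in pair-fed and from 94.9 to 342 in ethanol-fed mice. Its libraries overlapped, with 40.7 to 266.5 in Pair IMC against 21 to 104 in Pair control and 53.0 to 634 in EtOH IMC against 36.1 to 170.2 in EtOH control, and leaving out library 2, 3, 7, 8, 9, 14, 15 or 16 ended that call, at an adjusted p of up to 0.0592. Cdkn2c and Cdkn2d fell by 0.31 ± 0.10 and 0.62 ± 0.21 (adjusted p = 0.0269 and 0.0328). These calls were lost without library 2, 3, 6, 9, 10 or 13 for Cdkn2c and 5, 7, 8, 11, 12, 13, 14 or 16 for Cdkn2d, both with quantile normalization (0.0847 and 0.0685) and Cdkn2d with no filter (0.0547).

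Of 40 other mitotic factors, 20 passed the filter, and with IMC 1 was higher and 2 lower, with a median of −0.18 and 17 of 20 below 0. The one that rose, Nek2, a centrosomal kinase, rose by 1.76 ± 0.19 (adjusted p = 1.1e-05, limma), from a mean of 18.1 to 63.9 in pair-fed and from 11.6 to 40.7 in ethanol-fed mice. It counted 52.8 to 91.9 in Pair IMC against 11.7 to 28.3 in Pair control, and 28.2 to 49.8 in EtOH IMC against 9.56 to 14.3 in EtOH control, with no overlap in either diet and opposite to Mki67, Top2a and Birc5. Spc25, a kinetochore subunit, fell by 1.40 ± 0.19 with ethanol (adjusted p = 8.87e-05).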

How the data were processed

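Total RNA from 16 mouse livers was sequenced. According to the methods of the study, the authors used Trim Galore for trimming, STAR for alignment to mm10 and edgeR for normalization. The study names a directional library kit. The tool that counted reads on genes and its strand setting are not given in the sources used here, which give both single-end and paired-end reads. The deposited signal values proved to be the authors' read counts over 1 size factor per library, since dividing by the value of 1 read (0.906 to 1.18) left 100% of them within 0.01 of a whole number. In library 15 that value is 1.01, and whole reads are least sure there. The table had 27212 rows for 24082 genes, each used once. Chi-square values between replicates were 5.64 to 44.4 per gene (24 pairs), so no library repeats another of its group.

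Deposited values were shifted by 0.19 on the log2 scale between ethanol-fed and pair-fed libraries, so all 16 libraries were rescaled by a median ratio over 13121 genes. Genes with at least 10 in at least 4 libraries (12522) were fitted by limma 3.58.1 (R 4.3.3) after taking log2(value + 1). The model had a mean per group and a mean-variance trend, p-values were two-sided, and Benjamini-Hochberg adjustment was over all genes tested (threshold 0.05). Fold changes are on that scale and, for low genes, can be smaller or larger than those of count tools. For IMC in pair-fed mice, Mki67 was at −1.23 in limma and −0.60 in edgeR on whole reads, and Kif20a at 0.37 and 0.42. Intervals are at 95%. The fit was tested on simulated data. Positions and exon lengths are from GENCODE vM21 on GRCm38, and promoters from RefSeq on GRCm38.p6.

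All 37 genes were reported, with the 4 genes per direction with the smallest p among called genes of the pathway lists in both averaged comparisons, except where a gene is not reported here. The members, the pathway lists and the marker lists were chosen with earlier results of these data known. Alternatives were pseudocounts of 0.1 and 5, no filter, a mean of at least 100, values as deposited, quantile normalization, fits to the compared groups alone, whole reads in edgeR 4.0.16 and in DESeq2 1.42.0, and leaving out each library. Chosen after seeing the data were edgeR with upper-quartile normalization and edgeR without library 15. Plots were drawn with Python 3.11.15 and matplotlib 3.10.9.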

Additional observations from a re-analysis of the deposited data

Results flagged for a closer look

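Of 148 groups of 4 libraries examined over the 37 genes, 7 held a library far from the others by Dixon's ratio, where chance flags about 1 in 20. Pair control held 5 of them: library 16 was high for Mcm5 (43.5, others 18.8 to 20.4), Cdc20 (15.2, others 1.94 to 2.33) and Top2a (69.8, others 20.4 to 22.1), and library 14 was low for Cdc6 (0, others 3.89 to 5.54) and Foxm1 (3.5, others 9.72 to 11.1). Library 2 of Pair IMC was high for Nusap1 (28.3, others 8.71 to 10.01), and library 13 of EtOH IMC for Mcm2 (64.3, others 46.3 to 47.9). The effect of IMC on Rrm2 differed between the diets by −1.03 on the log2 scale, ethanol-fed minus pair-fed (adjusted p = 0.0166, limma).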

How the results depend on the processing

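No paired analysis was made, because the labels do not tie a pair-fed mouse to an ethanol-fed one. When single libraries were left out, the number of called genes ranged from 1 to 4 for IMC in pair-fed mice, 0 to 4 for IMC in ethanol-fed mice, 1 to 1 for the difference, 2 to 8 for IMC averaged over diets, 1 to 4 for ethanol without IMC, 0 to 2 for ethanol with IMC and 1 to 4 for ethanol averaged over treatments. The count for IMC in ethanol-fed mice was 0 without library 3, 5, 7, 8, 11, 13 or 14, 2 without library 4, 3 without library 6 and 4 without library 2. For ethanol with IMC it was 0 without library 4, 6, 8, 13 or 15 and 2 without library 1, 5 or 7, for ethanol without IMC 4 without library 16 and 2 without library 3, and for ethanol averaged over treatments 1 (Mcm2) without library 6, 7 or 14. IMC in ethanol-fed mice was the comparison most open to the tool: 1 gene was called in limma, 3 with a pseudocount of 5, 3 in edgeR, 4 in edgeR with upper-quartile normalization, 6 in DESeq2 and 7 with only the libraries of the comparison, of which 6 were lower, and 0 with no filter. Upper-quartile normalization gave 2 for IMC in pair-fed mice, and edgeR without library 15 gave 2 for IMC averaged over diets and 0 for ethanol with IMC. With no filter, ethanol averaged over treatments gave 1 and ethanol with IMC 0. Values as deposited, which carry the shift of 0.19 between diets, gave 8 genes, all higher, for ethanol averaged over treatments, 6 for ethanol with IMC and 5 for ethanol without IMC. DESeq2 gave 2 for each of the last 2, and the libraries of the comparison alone gave 2 for ethanol with IMC. A mean of at least 100 left 4 genes to test and gave 1 call for IMC averaged over diets (Rrm1), 1 for IMC in ethanol-fed mice and 0 for the others. Over the called cell cycle genes, 100 results under other settings kept the call and 14 lost it, 147 with a library left out kept it and 45 lost it, and 0 of them changed sign. Fits to the libraries of a comparison alone were not made for the difference and the averaged comparisons, which use all 4 groups. The causes of these changes were not tested. At a mean under 50 reads per library, as for most of these genes, counting error alone exceeds 0.2 on the log2 scale.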
